A study of Schmidtea mediterranea with 24 samples.

Results

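*plg1* (gene SMESG000018456.1), which the study matched to plasminogen, is 1 of the 22197 genes measured by RNA-seq in whole planarians after silencing of Hox genes. It was taken by its gene ID, and its level was followed across all 6 RNAi groups of the series. The animals were asexual adult *Schmidtea mediterranea* of the clonal line CIW4, fed 7 times with purified dsRNA, which lowers the matching transcript (RNA interference, RNAi), and starved for 5 days. In 5 groups a Hox gene was silenced (*hox1*, *hox3a*, *hox3b*, *lox5b* or *post2b*), and the control group was fed *unc-22* dsRNA, a sequence from a nematode gene. There were 4 libraries in each group, 24 in all, and each library pooled RNA from 3 animals, so every error and p-value given here measures the spread between such pools. All groups, control included, therefore shared the feeding of dsRNA and the starvation.

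Plasminogen is, in vertebrates, the inactive precursor of plasmin, a serine protease that cuts fibrin and proteins of the extracellular matrix. The planarian gene was placed by the study among the effectors of the anchor cells (its single-cell cluster Epidermal-10), epithelial cells of the marginal adhesive gland. In this gland, viscid gland cells inside the body secrete an adhesive that leaves through the anchor cells at the body margin, and by it a planarian holds to a surface while it tears itself apart in asexual fission. Hox genes encode transcription factors that set regional identity along the body axis. *plg1* was cloned and silenced by the study with 1 primer pair, and the planarian parts of these primers are shown because they mark the stretch of *plg1* that was targeted when the study silenced it, given 5′ to 3′ without the cloning overhang common to all of the study's pairs.

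*plg1* forward primer: actatttaaaacggcgactatgg
*plg1* reverse primer: acggaaagtacattagaaggact

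Each primer part was 23 bases long with a GC content of 39.1%. The protein, the promoter and the genome position of *plg1* were not analysed here.

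Levels are transcripts per 1000000 transcripts (TPM), which divide reads by transcript length and bring each library to the same sum. TPM do not keep read numbers, so depth is unknown and no counting error can be given. Between 16685 and 17843 genes were above 0 in a library, and libraries of the same group had a Pearson's r across genes of 0.985 to 0.993. In bulk RNA of whole animals, fewer anchor cells and less *plg1* RNA per cell cannot be told apart.

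*plg1* was a moderately abundant transcript in control animals and was almost lost after *post2b* RNAi. In control RNAi its level was 53.2, 54.8, 49.0 and 45.3 TPM in replicates 1 to 4, a mean of 50.6 ± 4.28 TPM (SD, n = 4). This level was above that of 80.0% of the 15829 genes that reached 0.5 TPM in at least 4 libraries. In *post2b* RNAi it was 9.44, 6.32, 3.96 and 2.69 TPM, a mean of 5.60 ± 2.97 TPM (SD, n = 4). The highest *post2b* RNAi library lay far below the lowest control library, a lack of overlap seen for 30.1% of tested genes, and *plg1* was then above only 30.8% of the tested genes.

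In *lox5b* RNAi the level was 30.4, 39.4, 33.4 and 26.4 TPM, a mean of 32.4 ± 5.45 TPM (SD, n = 4). All 4 libraries were below the lowest control library. In *hox1* RNAi the level was 46.4, 45.3, 38.4 and 53.5 TPM (45.9 ± 6.18, SD, n = 4), and in *hox3b* RNAi it was 46.01, 41.8, 48.1 and 47.2 TPM (45.8 ± 2.75, SD, n = 4). Both groups overlapped the control libraries. *hox3a* RNAi had the most spread in TPM, with 41.1, 60.0, 57.1 and 79.1 TPM (59.3 ± 15.6, SD, n = 4). Its replicate 1 lay below every control library and its other libraries lay above every one of them.

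**Figure D1:**
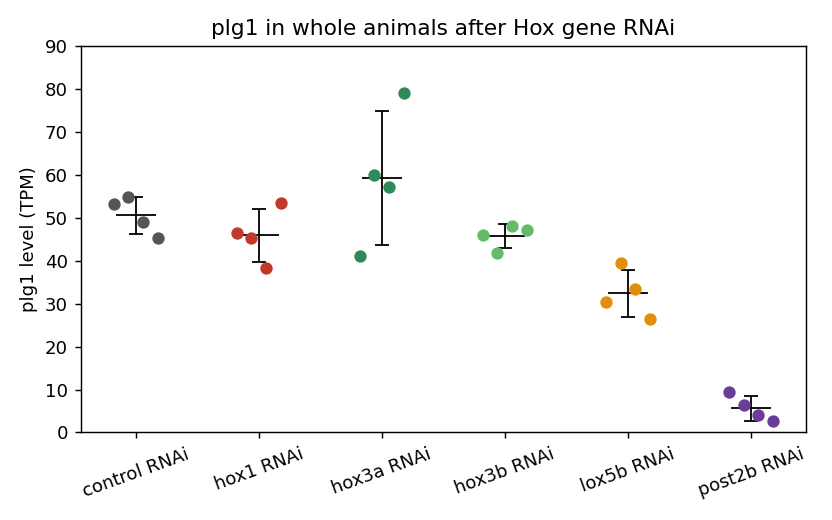
Level of *plg1* in TPM (vertical axis) in the 24 libraries of the 6 RNAi groups (horizontal axis). Points are libraries in the order of their replicate numbers, the horizontal bar is the group mean and the error bar is 1 SD (n = 4). The *post2b* RNAi libraries lie between 2.69 and 9.44 TPM, and the *lox5b* RNAi libraries between 26.4 and 39.4 TPM, all below the lowest control library at 45.3 TPM.

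By group mean, the order from highest to lowest was *hox3a*, control, *hox1*, *hox3b*, *lox5b* and *post2b* RNAi. To ask which neighbours in this order differed, log2(TPM + 0.5) was compared with limma over all 24 libraries in 1 model, with two-sided p-values and Benjamini-Hochberg adjustment over the 15829 genes. A gene was called changed at 1.5-fold or more and an adjusted p under 0.05, and in *lox5b* RNAi against control at 2-fold or more and an adjusted p under 0.01. These comparisons with control all use the same 4 control libraries and are not independent of each other.

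No difference of *plg1* from control was called in *hox1*, *hox3a* or *hox3b* RNAi. The log2 fold change was -0.14 (SE 0.22) in *hox1* RNAi, with a 95% interval of -0.61 to 0.32 and an adjusted p of 0.714 by limma. In *hox3a* RNAi it was 0.19 (SE 0.22), with an interval of -0.27 to 0.66 and an adjusted p of 0.553 by limma. In *hox3b* RNAi it was -0.14 (SE 0.22), with an interval of -0.60 to 0.32 and an adjusted p of 0.743 by limma. These intervals reach from 0.656 to 1.25 times the control level in *hox1* RNAi, from 0.830 to 1.58 times in *hox3a* RNAi and from 0.658 to 1.25 times in *hox3b* RNAi. Changes as large as that therefore remain possible. When the *post2b* RNAi libraries were left out of the fit, a choice made after seeing the data, these log2 intervals were narrower. They were -0.44 to 0.15 in *hox1*, -0.11 to 0.49 in *hox3a* and -0.44 to 0.16 in *hox3b* RNAi. For all tested genes, the share called in either direction was 1.86% in *hox1* RNAi, 4.92% in *hox3a* RNAi and 1.35% in *hox3b* RNAi.

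*plg1* was lower in *lox5b* RNAi than in control by a log2 fold change of -0.65 (SE 0.22, 95% interval -1.11 to -0.18, limma adjusted p = 0.0189), which is 0.639 times the control level. This is beyond neither the 2-fold limit nor the adjusted p of 0.01 set for *lox5b* RNAi, so it was not called there, although it would be at 1.5-fold and an adjusted p under 0.05, by which 14.1% of all tested genes were lower. At the cutoffs set for *lox5b* RNAi, 4.18% of all tested genes were called. Lack of overlap with control was common, since 44.7% of tested genes did not overlap between these groups. Over all tested genes the median log2 fold change here was -0.15, and after the TPM were rescaled by the median of ratios between libraries the value for *plg1* was -0.49 with a limma adjusted p of 0.0733, which is under 1.5-fold. Without *lox5b* replicate 4, the library with the lowest level, it was -0.55 with a limma adjusted p of 0.0573, also under 1.5-fold. Over all alternatives the adjusted p ran from 9.21e-04 to 0.0733. The spread in the model is shared by all groups and for *plg1* was widest on the log2 scale in *post2b* RNAi. With the *post2b* RNAi libraries left out of the fit, a choice made after seeing the data, the SE was 0.14 in place of 0.22 and the adjusted p of *plg1* in *lox5b* RNAi against control was 9.56e-04, still under 2-fold. The summed level of the 6 cilia marker genes described further on was also different in *lox5b* RNAi, at 131.9 to 161 TPM beside 93.5 to 117 TPM in control, and its part in the result was not tested.

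The Hox RNAi groups other than *post2b* were also compared directly in 6 pairs. *plg1* was higher in *hox3a* than in *lox5b* RNAi by a log2 difference of 0.84 (SE 0.22, 95% interval 0.38 to 1.30), or 1.79-fold. The limma adjusted p was 0.00778 over all genes and 0.00613 over the 6 pairs, and 6.51% of all tested genes were called in this pair. The libraries of the 2 groups did not overlap, as for 21.5% of tested genes. Without *hox3a* replicate 4, the library with the highest level, the difference was 0.69 with a limma adjusted p of 0.0345. With the *post2b* RNAi libraries left out of the fit the limma adjusted p was 2.67e-04. The exact permutation test of the 4 against 4 libraries gave a two-sided p of 0.0286, the smallest it can give.

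The other pairs were not called, and those with *lox5b* RNAi fell short of 1.5-fold. *plg1* was 0.50 higher on the log2 scale in *hox1* than in *lox5b* RNAi (95% interval 0.04 to 0.96, limma adjusted p = 0.0995 over all genes and 0.0709 over the pairs). It was 0.51 higher in *hox3b* than in *lox5b* RNAi (95% interval 0.04 to 0.97, limma adjusted p = 0.0847 over all genes and 0.0709 over the pairs), and the libraries of this pair did not overlap, as for 24.8% of tested genes. With the *post2b* RNAi libraries left out of the fit, the limma adjusted p was 0.0152 for *hox1* with *lox5b* and 0.0120 for *hox3b* with *lox5b* RNAi over all genes. *hox1* minus *hox3a* RNAi was -0.34 and *hox3a* minus *hox3b* RNAi was 0.34, with limma adjusted p-values of 0.385 and 0.438. In the fit without *post2b* RNAi their 95% intervals were -0.64 to -0.04 and 0.04 to 0.63, with limma adjusted p-values of 0.166 and 0.228. *hox1* and *hox3b* RNAi had nearly the same mean, with a difference of -0.00 and a 95% interval of -0.47 to 0.46 on the log2 scale. The shares of all tested genes called were 6.34% for *hox1* with *lox5b*, 2.25% for *hox1* with *hox3a*, 0.474% for *hox3a* with *hox3b* and 1.59% for *hox1* with *hox3b* RNAi, and 6.46% were called higher in *hox3b* than in *lox5b* RNAi. In the order of levels, then, no neighbouring pair from *hox3a* RNAi down to *lox5b* RNAi passed the cutoffs used, and *hox3b* with *lox5b* RNAi failed on fold alone when the *post2b* RNAi libraries were left out.

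The fall of *plg1* in *post2b* RNAi is described without a test, because the study chose *plg1* as a *post2b* effector from the changed genes of these libraries and from a screen of fission. The group mean was 9.03-fold lower than in control. The log2 fold change was -3.19 (SE 0.22, 95% interval -3.66 to -2.73). This SE and interval use the spread shared by all groups and are too narrow for this comparison. On the log2 scale *plg1* deviated from its group mean by 0.84, 0.29, -0.32 and -0.81 in *post2b* RNAi, and by -0.15 to 0.12 in control. The levels left in the 4 libraries were 18.7%, 12.5%, 7.83% and 5.31% of the control mean in replicates 1 to 4. Only 5 of the 15829 tested genes fell further on this scale, 41 genes were at least 4-fold lower and called, and 11 were at least 8-fold lower and called, beside 4.73% of tested genes called lower. Against the other Hox RNAi groups the log2 differences of *plg1* in *post2b* RNAi were -3.05 for *hox1*, -3.39 for *hox3a*, -3.05 for *hox3b* and -2.55 for *lox5b*. The *post2b* RNAi libraries were also below all libraries of *hox1*, *hox3a* and *hox3b* RNAi, and 17.2%, 12.5% and 14.3% of tested genes did not overlap in these comparisons. They lay below all *lox5b* RNAi libraries too (26.4 to 39.4 TPM), for which the share over all tested genes is not given here.

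**Figure D2:**
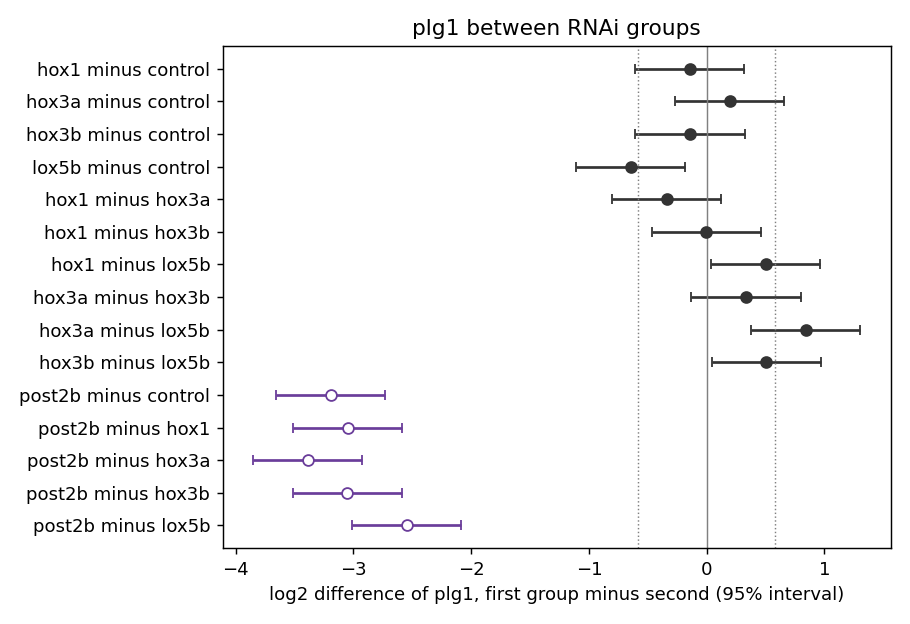
Difference of *plg1* between RNAi groups on the log2(TPM + 0.5) scale, first group minus second (horizontal axis), with 95% intervals from limma, for each pair of groups (vertical axis). Filled points were tested, open points are the *post2b* RNAi differences given as a description, and dotted lines mark 1.5-fold. The intervals use the spread shared by all groups and are too narrow for the *post2b* RNAi differences. The *post2b* RNAi differences lie between -3.39 and -2.55, and the others between -0.65 and 0.84.

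The study placed 7 effectors in the anchor cell cluster Epidermal-10, *plg1* among them. The others are *ifb*, an intermediate filament gene, *lmnAC*, a gene for a lamin of the nuclear envelope, the transcription factor genes *post2a* (a Hox gene) and *barHl2* (a homeobox gene), and dd13286 and dd20390, which carry transcript names only. Per transcript length, *ifb* and *lmnAC* were the most abundant in control RNAi, with 300.1 ± 27.3 and 258 ± 30.2 TPM (SD, n = 4). *plg1* came next, followed by dd13286 (16.2 ± 1.754 TPM), dd20390 (10.7 ± 1.22 TPM), *post2a* (9.84 ± 0.889 TPM) and *barHl2* (4.57 ± 0.505 TPM).

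None of these 7 genes was called changed in *hox1*, *hox3a*, *hox3b* or *lox5b* RNAi against control, where 1.86%, 4.92%, 1.35% and 4.18% of all tested genes were called, so that 0 of 7 is near the background. In *lox5b* RNAi their log2 fold changes ran from -0.65 for *plg1* to -0.03 for dd20390, with a median of -0.34 beside -0.15 over all tested genes. *ifb* had -0.45 and dd13286 had -0.57, with limma adjusted p-values of 0.201 and 0.0506. With the *post2b* RNAi libraries left out of the fit, the SE was 0.10 in place of 0.29 for *ifb* and 0.13 in place of 0.24 for dd13286. The limma adjusted p-values were then 7.56e-04 for *ifb*, 9.73e-04 for dd13286 and 0.0116 for *lmnAC* (-0.34), all under 2-fold. In *hox3a* RNAi the 7 log2 fold changes ran from 0.02 to 0.28, with a median of 0.17 beside -0.14 over all tested genes. In the direct comparison of *hox3a* with *lox5b* RNAi, 2 of the 7 were called higher beside 3.91% of all tested genes. They were *plg1* and dd13286, the latter by 0.79 on the log2 scale (SE 0.24, limma adjusted p = 0.0197). In *post2b* RNAi all 7 had lower means, with log2 fold changes from -3.19 for *plg1* to -1.44 for *barHl2*, given as a description because the study chose this list on these libraries. Of all tested genes, 4.73% were called lower there. In plain TPM, dd13286 was at 10.8% of its control mean in *post2b* RNAi and *plg1* at 11.1%. Which of these genes fell further therefore depends on the scale and the pseudocount.

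The *post2b* RNAi libraries differed from each other in how much of these transcripts was left, and *plg1* followed the other anchor cell genes. *ifb* was at 79.7, 56.4, 22.4 and 15.3 TPM in replicates 1 to 4, and *lmnAC* at 68.9, 55.6, 21.6 and 15.9 TPM. dd13286 was at 3.23, 2.30, 0.869 and 0.601 TPM. For all 7 genes, replicates 1 and 2 both lay above replicates 3 and 4, as was so for 16.3% of all tested genes. The viscid gland gene *rcn-1*, for reticulocalbin, which binds calcium in the endoplasmic reticulum, did not have this order, with 605, 567, 559 and 638 TPM. By the study, *rcn-1* is also expressed in cells around the pharynx, where *post2b* RNAi left it, so its level in whole animals is not that of viscid gland cells alone. *syt1*, for synaptotagmin, a protein of vesicle release, and also placed in the viscid gland cells, had it, with 3.15, 2.70, 1.24 and 1.05 TPM. The viscid gland gene *fer3l2* did not have this order, with 2.34, 2.37, 2.62 and 0.409 TPM. The level of *post2b* itself was not analysed here.

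**Figure D3:**
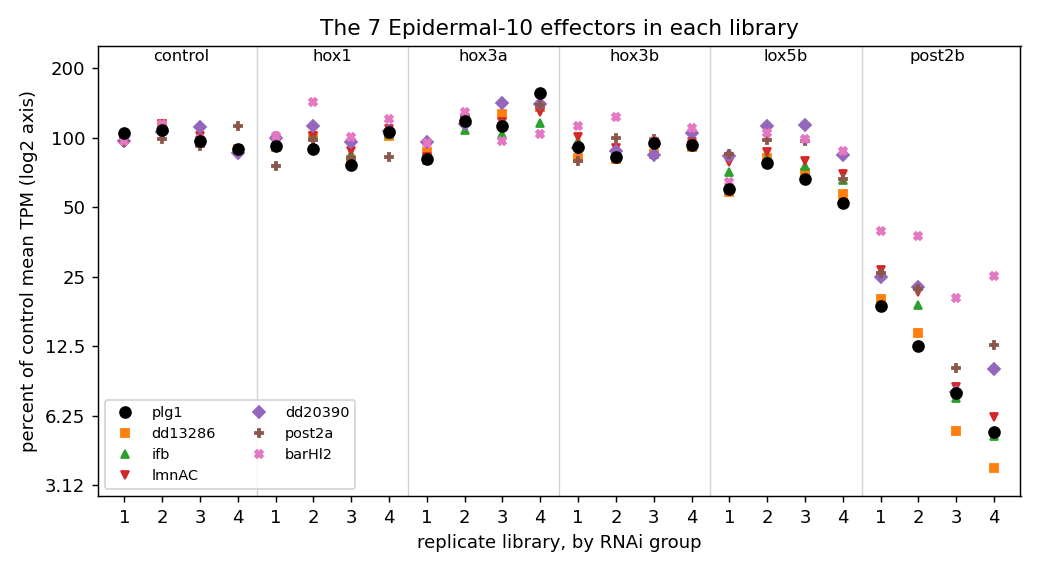
Level of the 7 Epidermal-10 effectors in each of the 24 libraries as a percent of the control mean (vertical axis, log2 scale), with libraries grouped by RNAi (horizontal axis, replicate numbers). Each point is 1 gene in 1 library, and black circles are *plg1*. In *post2b* RNAi *plg1* stands at 18.7, 12.5, 7.83 and 5.31%, and the other genes also stand higher in replicates 1 and 2 than in replicates 3 and 4.

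The libraries outside *post2b* RNAi gave a view of *plg1* that did not use its fall. In each of the other 5 groups the deviation of each library from its group mean was taken on the log2(TPM + 0.5) scale, and the deviations of *plg1* were compared with those of every other tested gene over these 20 libraries. This is a description, since all points of a library share its RNA, its TPM scale and its depth. Pearson's r was 0.90 for dd13286, 0.89 for *lmnAC* and 0.89 for *ifb*, with Spearman's rho of 0.84, 0.74 and 0.79. By r these 3 genes ranked 3, 4 and 5 of 15828 genes, while 90% of all genes had an r between -0.49 and 0.62. The value was lower for *rcn-1* (r = 0.73), *syt1* (0.72), dd20390 (0.71) and *post2a* (0.66), and *barHl2* (0.36) and *fer3l2* (0.37) lay inside that range. In *hox3a* RNAi, for example, replicate 1 was lowest and replicate 4 highest for *plg1*, for *ifb* (239, 323, 312 and 348 TPM), for *lmnAC* (213, 294, 303 and 334 TPM) and for dd13286 (13.99, 19.5, 20.5 and 21.98 TPM).

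*plg1* was also compared with each other anchor cell gene as a ratio within a library, which asks whether the transcripts fell by the same factor in *post2b* RNAi. It compares falls with each other and is no test of the fall of *plg1*. For *ifb* the mean log2 ratio of *plg1* to the gene was -2.56 ± 0.07 in control and -2.69 ± 0.41 in *post2b* RNAi (SD, n = 4), a difference of -0.13 with an exact permutation p of 0.486. The *post2b* RNAi values went both ways, since replicates 1 and 2 (-3.01 and -3.06) lay below all controls and replicates 3 and 4 (-2.36 and -2.31) above all of them (-2.62 to -2.47). For *lmnAC* the difference was -0.29, and for dd13286 -0.13, with exact permutation p-values of 0.229 and 0.257 (0.309 for each after adjustment over the 6 ratios). *plg1* was lower relative to the remaining genes, by -0.93 for *post2a*, -1.75 for *barHl2* and -0.79 for dd20390. Each of these gave the smallest p of the exact permutation test, 0.0286, or 0.0571 after adjustment over the 6 ratios, above the threshold of 0.05.

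The plain ratios of TPM show where these differences rest. For *ifb* the ratio was 0.161 to 0.179 in control and 0.118, 0.112, 0.177 and 0.175 in *post2b* RNAi, so that without the pseudocount replicates 3 and 4 lay within the controls. For *lmnAC* it was 0.185 to 0.213 in control and 0.137, 0.114, 0.183 and 0.169 in *post2b* RNAi, with no overlap, though narrowly in replicate 3. With the pseudocount, the log2 ratios to *lmnAC* in replicates 3 and 4 (-2.31 and -2.37) lay within the controls (-2.42 to -2.22). The small mean differences for these genes therefore do not show that they fell by the same factor as *plg1* in each library. *plg1* was 11.96, 10.4, 10.9 and 11.2 times *barHl2* in control and 5.23, 3.68, 4.30 and 2.33 times in *post2b* RNAi, with no overlap. It was 5.65, 5.63, 5.39 and 4.08 times *post2a* in control and 3.71, 2.89, 3.98 and 2.16 times in *post2b* RNAi, again with no overlap. For dd20390 the plain ratio was 4.10 to 5.14 in control and 2.52 to 4.65 in *post2b* RNAi, so that 1 library overlapped. For dd13286 it was 2.95 to 3.31 in control and 2.92, 2.74, 4.56 and 4.47 in *post2b* RNAi, on either side of control. dd13286 fell below 1 TPM in replicates 3 and 4, where the pseudocount of 0.5 weighs most. In *lox5b* RNAi the plain ratio of *plg1* to dd20390 was 3.39, 3.26, 2.76 and 2.93, below all control libraries, and that to *post2a* was 3.51 to 4.08, at or below the lowest control library. The ratios to *ifb* (0.134 to 0.160), *lmnAC* (0.146 to 0.175) and *barHl2* (6.59 to 10.3) were below control too. That to dd13286 (2.87 to 3.23) overlapped control. Of single tested genes, 44.7% did not overlap between *lox5b* RNAi and control. These *lox5b* RNAi ratios were not tested.

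To find the genes with a profile nearest to that of *plg1*, each gene's log2 difference from its own control mean was taken in the 20 Hox RNAi libraries, and the root mean square distance from *plg1* was computed for 14472 genes with at least 1 TPM in control. A distance of 0 would be the same profile, and the median over all ranked genes was 1.45. The nearest gene was dd13286 (0.137), followed by *ifb* (0.231), SMESG000010960.1 (0.232), *lmnAC* (0.257) and SMESG000077082.1 (0.259). *syt1* stood at rank 9 (0.379), and the other 4 of the nearest 10 carry no name in the tables used here. Over all 24 libraries Pearson's r with *plg1* was 0.995 for dd13286 and 0.985 for *ifb*, values that include the fall in *post2b* RNAi. The other anchor cell genes were further off, with dd20390 at rank 17, *post2a* at rank 19 and *barHl2* at rank 41. The distance includes the 4 *post2b* RNAi libraries, where *plg1* fell most. A gene could therefore be near only if it fell about as far there. All of the 10 nearest genes had a log2 fold change in *post2b* RNAi between -3.27 and -2.60, which follows from the ranking.

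**Figure D4:**
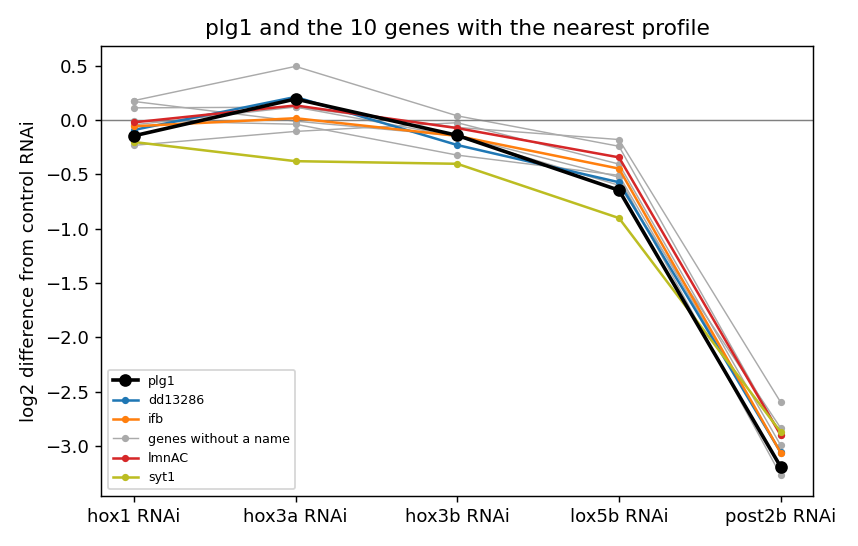
Log2 difference from control RNAi (vertical axis) in the 5 Hox RNAi groups (horizontal axis) for *plg1* in black and for the 10 genes nearest to it, of which 4 have names and 6 are in grey. Each point is the mean over 4 libraries. *plg1* runs from 0.19 in *hox3a* RNAi to -0.65 in *lox5b* and -3.19 in *post2b* RNAi.

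The remaining *post2b* effectors show how far the pattern of *plg1* reaches. Of the viscid gland genes, *syt1* fell by 2.87, *fer3l2*, a gene for a basic helix-loop-helix transcription factor, by 1.91, and *rcn-1* by 0.90 on the log2 scale in *post2b* RNAi. *fktn*, whose vertebrate relative fukutin takes part in the glycosylation of dystroglycan, fell by 2.53. *zmym2*, *nipbl*, *ncam2* and *eve* fell by 0.93, 1.00, 0.77 and 0.73. These falls are a description too, since the study chose all 15 effectors on these libraries. Of the 15, only *ncam2*, for a cell adhesion molecule, was called in another group against control, with log2 fold changes of -0.69 in *hox3a* RNAi (limma adjusted p = 0.0182) and -1.02 in *lox5b* RNAi (limma adjusted p = 2.85e-04). Of all tested genes 4.07% were called lower in *hox3a* RNAi and 3.92% in *lox5b* RNAi, and neither call on *ncam2* was made after rescaling. The 15 log2 fold changes in *lox5b* RNAi ran from -1.02 for *ncam2* to 0.19 for *eve*, beside a median of -0.15 over all tested genes. Next to *ncam2* came *syt1* with -0.90, further than *plg1* with -0.65, and *syt1* was under the 2-fold limit set for this group.

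A list of 8 other genes with product names of proteases, plasminogen matches or protease inhibitors was counted beside *plg1*. Another gene matched to plasminogen, SMESG000002831.1, was at 5.89, 4.85, 4.36 and 4.88 TPM in control, and at 2.47, 3.18, 3.22 and 3.23 TPM in *post2b* RNAi. Its log2 fold change was -0.64 there (limma adjusted p = 0.0803) and -0.74 in *lox5b* RNAi (limma adjusted p = 0.0246), and neither was called. In *hox1*, *hox3a* and *hox3b* RNAi it was -0.60, -0.36 and -0.07, also not called. Of the other matches to both plasminogen and Ror2, 1 was too low to be tested and the other lay between 0.129 and 0.584 TPM and was not called in any group.

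Of the 7 tested genes of this list, the gene matched to endothelin-converting enzyme 1, a membrane metalloprotease, was called lower in 4 groups. It was at 14.4, 13.2, 10.9 and 10.8 TPM in control and at 1.41, 2.26, 3.80 and 3.22 TPM in *lox5b* RNAi, with no overlap, as for 44.7% of tested genes. Its log2 fold change was -2.07 in *lox5b*, -1.05 in *hox1*, -0.81 in *hox3a* and -0.81 in *post2b* RNAi, with limma adjusted p-values of 6.16e-07, 0.00991, 0.0154 and 0.0130. Of all tested genes, 3.92% were called lower in *lox5b*, 1.58% in *hox1*, 4.07% in *hox3a* and 4.73% in *post2b* RNAi. The list was chosen with earlier results of these data known, so these calls and p-values are a description. A Kunitz domain gene, a family of serine protease inhibitors in animals, stood at 1.44, 1.80, 0.524 and 1.96 TPM in *hox3a* RNAi beside 0.154 to 0.450 TPM in control. It reached 0.5 TPM in 6 libraries, 4 of them of *hox3a* RNAi, and so entered the test only through the group where it is high, and its call there (0.847% of tested genes were called higher) is not given as a result.

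Markers of other cell types were counted in the same way. None of 6 tested genes of cilia, 3 of muscle and 7 of neurons was called against control in any of the 5 Hox RNAi groups, beside 1.86%, 4.92%, 1.35% and 4.18% of all tested genes in *hox1*, *hox3a*, *hox3b* and *lox5b* RNAi and 4.73% called lower in *post2b* RNAi. A count of 0 of 16 is near that background. In *post2b* RNAi their median log2 fold changes were 0.15, -0.02 and -0.30, beside -0.15 over all tested genes. The summed level of the cilia genes was 131.9 to 161 TPM in *lox5b* RNAi, the group in which *plg1* was lower, and 93.5 to 117 TPM in control. Their log2 fold changes there ran from -0.05 to 0.84, with a median of 0.30 beside -0.15 over all tested genes. The inner dynein arm light chain gene, of the ciliary motor, was at 23.9, 24.9, 22.8 and 21.5 TPM in *lox5b* RNAi and at 12.1, 13.5, 11.03 and 14.9 TPM in control (log2 fold change 0.84, limma adjusted p = 7.27e-07). It was the only one of the 6 cilia genes called higher at 1.5-fold and an adjusted p under 0.05, beside 3.70% of all tested genes. In *hox3a* against *lox5b* RNAi this gene was called lower by 0.63 on the log2 scale, beside 2.60% of all tested genes. The summed muscle level was 3130 to 3300 TPM in *lox5b* RNAi and 2745 to 2913 TPM in control, and the summed neuron level 39.0 to 42.8 TPM and 47.0 to 53.5 TPM. Lack of overlap with control was not particular to *lox5b* RNAi. The muscle sum also lay above control in *hox1* (2934 to 3199 TPM) and *hox3b* RNAi (2958 to 3208 TPM). It overlapped control in *hox3a* and *post2b* RNAi. The neuron sum also lay below control in *hox1* (39.9 to 45.5 TPM), *hox3a* (35.8 to 45.3 TPM) and *post2b* RNAi (36.4 to 45.8 TPM). It overlapped control in *hox3b* RNAi. The part of the cilia, muscle and neuron levels in the *plg1* differences of *lox5b* RNAi from control and from *hox3a* RNAi was not tested. *ifb*, known from earlier work as a marker of the anchor cells, was present in every library. The assignment of *plg1* itself to these cells was not checked here beyond its profile in whole animals.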

How the data were processed

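The authors made stranded poly(A) mRNA libraries, demultiplexed with bcl2fastq2 version 2.20, ran STAR against the smed_dd_g4 assembly, and took reads per Smes_hv_v1 gene model. The table deposited by the authors holds TPM for 22197 genes in 24 libraries. The tool for TPM is not given in the sources used here. A rise in abundant transcripts lowers the TPM of all others.

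log2(TPM + 0.5) was fitted by RNAi group with limma 3.58.1 in R 4.3.3 (eBayes with intensity trend), over the 15829 genes with at least 0.5 TPM in at least 4 libraries. Ratios were compared by exact permutation tests. The fit was tested on simulated data for *post2b* RNAi against control in 15829 genes: it recovered 90.0% of 50 genes changed 1.75-fold and 100% of 50 changed 2.5-fold, with 5 false calls. Genes of low mean TPM were not among those changed. Each gene had the same normal spread in every group, so the wider spread of *plg1* in *post2b* RNAi was not simulated. Named were *plg1*, the 15 *post2b* effectors, the protease list and the 10 nearest genes, unnamed ones by count beyond 2. *plg1* and all lists were chosen with earlier results of these data known, and names came from the part of the study's supplementary tables used here. The study's methods print adjusted p cutoffs of 0.5, and 0.1 for *lox5b* RNAi, and the stricter 0.05 and 0.01 were used here. Alternatives were other pseudocounts, filters, scaling, models, a replicate block, leaving out each library and, added after seeing the data, leaving out *post2b* RNAi.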

Additional observations from a re-analysis of the deposited data

Results flagged for a closer look

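In each RNAi group of 4 libraries, the gap between an extreme library and its nearest neighbour was compared with the range of the group (Dixon's test at its 95% critical value) for the 15 *post2b* effectors and the 8 protease list genes. Of 138 groups 7 had a library past this value, and chance flags about 1 in 20, or 6.9. No group of *plg1* was among them. Among the anchor cell genes, *post2a* was at 7.80 TPM in *hox3b* replicate 1, beside 9.46 to 9.80 TPM in the others. Of the viscid gland genes, *fer3l2* was at 0.409 TPM in *post2b* replicate 4, beside 2.34 to 2.62 TPM, and *rcn-1* at 1054 TPM in *hox3b* replicate 3, beside 906 to 924 TPM. *eve* was at 4.02 TPM in the same library, beside 3.19 to 3.32 TPM. The gene SMESG000002831.1, matched to plasminogen, was at 2.47 TPM in *post2b* replicate 1, beside 3.18 to 3.23 TPM. The gene matched to transmembrane protease serine 3 was at 166 TPM in *hox3a* replicate 1, beside 186 to 190 TPM. The untested match to plasminogen and Ror2 was at 0.347 TPM in *hox3b* replicate 2, beside 0.132 to 0.142 TPM.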

How the results depend on the processing

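The 15 differences of *plg1* between groups gave 261 values under the alternatives, and 257 kept their direction and their side of the cutoffs (or, for the *post2b* RNAi differences, moved by less than 1 SD). *lox5b* RNAi minus control, at -0.65, passed at 1.5-fold and an adjusted p under 0.05. *hox1* minus *hox3b* RNAi, at -0.00, ran from -0.0804 to 0.0773 when 1 library was left out, and changed sign without *hox1* replicate 3 (0.0773) and, with 0.0195 and 0.0108, without *hox3b* replicates 3 and 4. Leaving out 1 library moved *lox5b* minus control between -0.74 and -0.55, *hox3a* minus *lox5b* between 0.69 and 1.00, and *post2b* minus control between -3.47 and -2.92. Replicate numbers follow the serial numbers in the library titles. In none of 15 comparisons did every same-numbered pair deviate together (r over 0.1), a rule that cannot exclude a weaker or partial pairing. In *hox1* with *hox3a* RNAi and in *post2b* with control RNAi, 3 libraries of the first group were most like the library of their own number. With the replicate block, *hox3a* minus *lox5b* RNAi stayed at 0.84 (limma adjusted p = 0.0111) and *lox5b* minus control at -0.65 (0.0244), and no call changed. Leaving the *post2b* RNAi libraries out of the fit, chosen after seeing the data, changed none of the 10 calls between the other groups. Rescaling by the median of ratios moved the median of all genes by 0.14 in *hox3a*, 0.14 in *lox5b* and 0.15 in *post2b* RNAi, and left 0 of the 15 effectors called lower in *hox3a* and 0 in *lox5b* RNAi, where *ncam2* had been. With a pseudocount of 0.1 the ratio of *plg1* to dd13286 changed sign, to 0.11. With a pseudocount of 1 the ratios to *post2a* (-1.05), *barHl2* (-1.84), dd13286 (-0.32) and dd20390 (-0.93) each reached an adjusted exact permutation p of 0.0429. These 4 genes stood at 0.601 to 3.23 TPM in *post2b* RNAi, and the part of the pseudocount at such levels was not separated from that of unknown depth.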
